A study of Mus musculus with 21 samples.

Results

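RNA of 10 genes known from Sertoli cells was followed in fractionated mouse spermatogenic cells: *Sox9*, *Wt1*, *Gata4*, *Rhox5*, *Clu*, *Trf*, *Amh*, *Fshr*, *Cldn11* and *Vim*. They are 10 of the 24456 genes listed in each library, picked by name to gauge how much RNA of Sertoli cells each fraction held. They were picked because earlier inspection of these same libraries showed much of this RNA in the condensing spermatid fraction, so that differences between that fraction and the others are described here without a test. The study sequenced total RNA, depleted of ribosomal RNA, from pachytene spermatocytes, round spermatids and condensing spermatids, each in 3 wild-type (WT) and 3 *H2al2* KO replicates, and from spermatozoa, in 2 WT libraries and 1 *H2al2* KO library. *H2al2* encodes H2A.L.2, a histone variant of late spermatids. All libraries are labelled as coming from testis. The strain, the age of the mice, the kind of null allele and the number of animals behind a fraction are not given in the sources used here, and the study speaks of biological replicates, named for round spermatids, without saying which animals or preparations lie behind each library, so that a p-value measures the spread between these libraries only.

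Sertoli cells are the somatic cells of the seminiferous epithelium. Each one holds many germ cells in pockets of its cytoplasm, feeds them, forms the tight junctions of the blood-testis barrier, and takes up the residual cytoplasm that spermatids shed when they leave the epithelium. Elongating and condensing spermatids are anchored to the Sertoli cell by an actin-rich adhesion, and fractions of germ cells made from dispersed tubules can hold somatic cells or pieces of them. The transcription factors SOX9, WT1 and GATA4 hold the identity of the cell, follicle-stimulating hormone acts through FSHR, and clusterin and transferrin are among its secreted products.

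Counts on genes ran from 2772995 to 8201682 per library, and levels are given as CPM, the count of a gene divided by its library's total on genes and scaled to 1000000, on which 1 count stood for 0.122 to 0.361. *H2afb1*, the listed gene of H2A.L.2, had 1458 to 1495 counts in WT round spermatids and 144 to 182 in the KO libraries, 1100 to 1423 against 184 to 258 in condensing spermatids, 99 to 339 against 22 to 31 in pachytene spermatocytes, and 130 and 198 against 48 in spermatozoa, so the KO libraries lay lowest in each stage. WT round spermatid replicates 2 and 3 differed little more than counting error allows: over genes with 100 to 1000 summed counts the mean chi-square per gene was 1.06, against 1.90 to 12.2 in the other replicate pairs. Over genes above 10000 counts it was 8.76, also the lowest, against 65.9 to 593 in the other pairs. Whether the 2 are parts of 1 library, which would leave 2 WT round replicates, was not tested. Their high-count genes differed beyond counting error, so they were kept apart, and tests that rest on them are also given with the pair summed.

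The promoters of 4 of the 10 genes were found in RefSeq tables of the GRCm38.p6 build, which is the build of the deposited counts (mm10). Of these, 3 are printed: *Fshr*, the gene of the follicle-stimulating hormone receptor, which in the testis is known from Sertoli cells, the homeobox gene *Rhox5*, and *Cldn11*, the most abundant junction gene of the list in the condensing fraction. Each is the 250 bases before the start of the gene, 5′ to 3′ on its own strand, with matches to the letters CACGTG (an E-box), GATAA (the core bound by GATA factors) and ACAAT (the core bound by SOX factors), searched on both strands, in capitals.

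*Fshr*, chr17:89200676-89200925, minus strand: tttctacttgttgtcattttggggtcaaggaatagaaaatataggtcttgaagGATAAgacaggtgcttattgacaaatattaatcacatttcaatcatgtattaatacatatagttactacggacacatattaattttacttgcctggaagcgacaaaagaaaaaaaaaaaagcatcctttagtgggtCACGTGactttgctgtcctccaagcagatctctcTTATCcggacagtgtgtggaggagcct
*Rhox5*, chrX:37754358-37754607, plus strand: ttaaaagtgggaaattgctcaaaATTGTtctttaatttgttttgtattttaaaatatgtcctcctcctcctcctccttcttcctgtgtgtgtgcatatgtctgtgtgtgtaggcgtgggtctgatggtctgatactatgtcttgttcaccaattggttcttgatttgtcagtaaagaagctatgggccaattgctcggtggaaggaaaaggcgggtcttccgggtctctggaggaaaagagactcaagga
*Cldn11*, chr3:31149670-31149919, plus strand: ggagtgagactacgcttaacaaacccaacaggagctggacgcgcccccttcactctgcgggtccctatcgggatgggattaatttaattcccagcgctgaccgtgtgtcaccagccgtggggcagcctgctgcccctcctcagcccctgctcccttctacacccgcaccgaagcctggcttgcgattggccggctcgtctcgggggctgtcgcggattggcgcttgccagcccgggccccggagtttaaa

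The *Fshr* window held 1 E-box, at -61 to -56 from the start, and 2 GATAA matches, at -197 to -193 and, on the other strand, at -27 to -23. The *Rhox5* window held 1 ACAAT match on the other strand, at -227 to -223. No match to these letters was found in the windows of *Cldn11* and *Vim*. Of all 32851 windows of the same length, 6.02% held the E-box letters, 22.6% GATAA and 27.7% ACAAT. The RefSeq start of *Rhox5* lies at 37754608 on chromosome X and the GENCODE M21 gene runs from 37804842 to 37808876, so the window belongs to the RefSeq start alone.

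Summed over the 10 genes, the level was low in pachytene spermatocytes and round spermatids and about 11-fold higher in condensing spermatids. In pachytene spermatocytes the sum was 35.0, 38.9 and 46.9 CPM in the WT libraries and 33.5, 20.5 and 20.6 CPM in the KO libraries. In round spermatids it was 51.1, 38.5 and 34.4 CPM in WT and 33.4, 30.8 and 24.5 CPM in KO. In condensing spermatids it was 472, 384 and 462 CPM in WT and 375, 329 and 292 CPM in KO. Spermatozoa had 524 and 485 CPM in the 2 WT libraries and 1776 CPM in the KO library. The condensing mean was 10.6 times the round mean in WT and 11.2 times in KO, and 10.9 and 13.4 times the pachytene mean. In order, the ranges of pachytene KO and round KO overlapped, as did those of pachytene WT and round WT, while the condensing and spermatozoa groups did not overlap their neighbours. The gap between the highest condensing KO library and the lowest condensing WT library was small, 375 against 384 CPM, and their counting intervals (exact Clopper-Pearson, 95%) overlapped. In bulk RNA, a smaller number of Sertoli cells and less of this RNA per cell cannot be told apart.

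**Figure D1:**
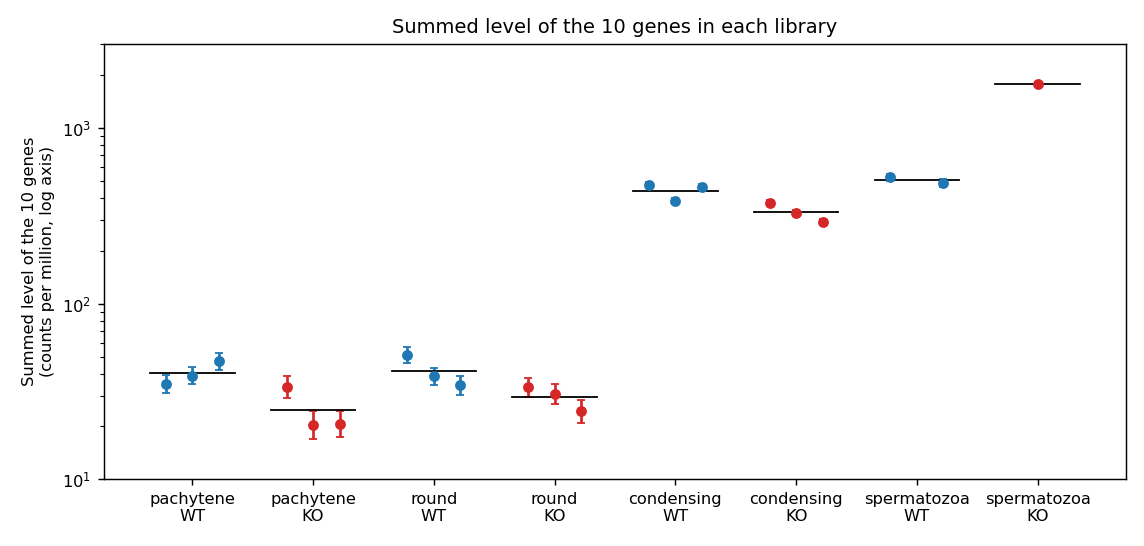
Summed level of the 10 Sertoli cell genes in CPM (log axis) in each of 21 libraries, blue for WT and red for *H2al2* KO. Bars are exact 95% counting intervals and black lines group means; the 6 condensing libraries sit between 292 and 472 CPM, all above the 12 pachytene and round libraries at 20.5 to 51.1 CPM, and the spermatozoa KO library at 1776 CPM is the highest.

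Of the 10 genes, 9 had every condensing library above every pachytene and round library, and *Amh* did not. Over genes with a mean of at least 1 CPM this held for 10.6%, but the genes were chosen on this contrast and nothing is read from the difference. The ratio of the condensing to the round mean in WT ran from 4.41 to 30.1 over the members, with a median of 12.4, beside a median of 1.07 over all such genes.

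Of the 3 identity factors *Sox9*, *Wt1* and *Gata4*, *Wt1* (chr2:105126529-105173616) had the highest level per length in the condensing fraction. It lay at 0.747 to 2.58 CPM in pachytene spermatocytes and 0.830 to 2.57 CPM in round spermatids. In condensing spermatids it reached 26.7, 25.3 and 30.1 CPM in WT and 27.4, 23.5 and 19.9 CPM in KO, with overlapping groups. *Sox9* (chr11:112782224-112787760), the factor that drives Sertoli cell fate, was at 0.172 to 0.645 CPM in pachytene spermatocytes. It was at 1.27, 1.69 and 0.546 CPM in WT and 1.35, 1.10 and 0.553 CPM in KO round spermatids, and at 16.4, 11.2 and 12.6 CPM in WT and 14.7, 12.2 and 8.86 CPM in KO condensing spermatids. Both genotypes overlapped in both stages. *Gata4* (chr14:63198922-63271692), which Leydig cells also express, was at 0.448 to 1.93 CPM in pachytene, 0.409 to 1.43 CPM in round and 11.01 to 14.97 CPM in condensing libraries. *Rhox5*, an X-linked homeobox gene that androgen activates in Sertoli cells, had 0 to 5 counts in each of the 12 pachytene and round libraries and 37 to 59 counts, or 5.43 to 8.15 CPM, in the condensing ones.

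Among the secreted products, *Clu* (chr14:65968483-65981547), which encodes the chaperone clusterin, carried most of the summed level. It was at 22.9, 23.3 and 29.6 CPM in WT and 18.5, 10.4 and 8.51 CPM in KO pachytene spermatocytes, at 29.2, 22.3 and 19.0 CPM in WT and 16.8, 16.3 and 13.6 CPM in KO round spermatids. In condensing spermatids it was at 304, 253 and 314 CPM in WT and 222, 193 and 170.1 CPM in KO. In each of these 3 stages every KO library lay below every WT library. *Trf* (chr9:103204001-103230444), the iron carrier transferrin, lay at 0.171 to 1.61 CPM in pachytene spermatocytes, 0.690 to 1.78 CPM in round spermatids, and 12.5, 8.99 and 9.02 CPM in WT and 7.42, 7.03 and 8.29 CPM in KO condensing spermatids. A predicted gene, *Gm20425*, overlaps *Trf* on the same strand, so reads of the 2 could not be assigned with certainty. *Amh* (chr10:80805243-80807648), the hormone of immature Sertoli cells that falls after puberty, had 0 to 8 counts in every library. It was the only member whose condensing libraries did not all lie above the others, at 0.146 to 0.851 CPM against 0.171 to 0.975 CPM in pachytene spermatocytes. It had 0 counts in 2 WT round spermatid libraries, which allows up to 0.382 and 0.391 CPM there (3 counts).

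The receptor gene *Fshr* (chr17:88984952-89200675) was scarce throughout, with 0 to 2 counts in each pachytene and round library and 4 to 12 counts, or 0.572 to 1.85 CPM, in the condensing libraries. *Cldn11* (chr3:31149920-31164324), the claudin of the blood-testis barrier, was at 1.98, 1.22 and 1.77 CPM in WT and 1.21, 0.684 and 0.597 CPM in KO pachytene spermatocytes. In round spermatids it was at 4.97, 1.95 and 2.05 CPM in WT and 2.30, 1.52 and 2.35 CPM in KO, and in condensing spermatids at 50.9, 33.0 and 31.3 CPM in WT and 37.5, 39.7 and 32.3 CPM in KO. WT replicate 1 was the highest library of its group in both spermatid stages. *Vim* (chr2:13573927-13582826) encodes the intermediate filament vimentin, which most mesenchymal cells and macrophages share with Sertoli cells. It was at 5.33, 8.53 and 7.73 CPM in WT and 10.2, 5.64 and 8.51 CPM in KO pachytene spermatocytes, at 10.1, 8.07 and 8.05 CPM in WT and 6.63, 6.21 and 4.43 CPM in KO in round spermatids, and at 40.4, 34.6 and 40.5 CPM in WT and 42.1, 32.2 and 35.2 CPM in KO in condensing spermatids. *Vim* thus had the smallest ratio between condensing and round WT spermatids, 4.41.

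Per kilobase of the longest coding transcript, the median level over the 6 condensing libraries was 131 CPM for *Clu*, 18.8 for *Cldn11*, 17.2 for *Vim*, 11.4 for *Rhox5* and 8.41 for *Wt1*. It was 3.47 for *Gata4*, 3.36 for *Trf*, 2.99 for *Sox9*, 0.419 for *Fshr* and 0.250 for *Amh*. On this scale *Clu* stood above all other members, and the receptor gene *Fshr* and the hormone gene *Amh* were the lowest.

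**Figure D2:**
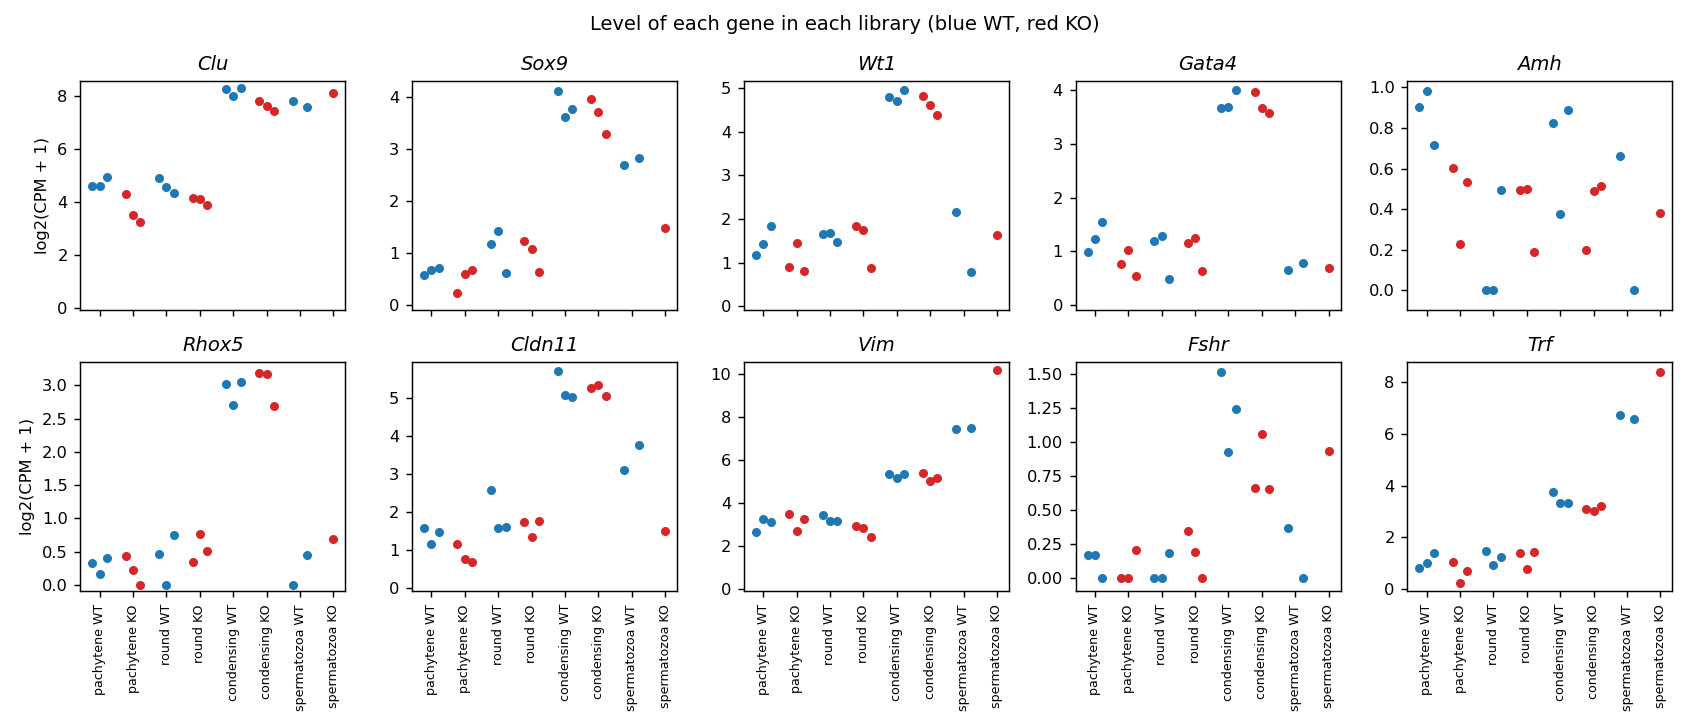
Level of each of the 10 genes, as log2(CPM + 1), in each library of the 8 stage and genotype groups (blue WT, red KO; each panel has its own vertical scale). In 9 panels the 6 condensing libraries lie above all pachytene and round libraries, *Amh* stays under 1 CPM in every library, and *Vim* and *Trf* are highest in spermatozoa.

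The shares of the genes in this RNA differed among the stages. *Clu* supplied 58.4% of all reads on the 10 genes in pachytene spermatocytes, 55.1% in round spermatids and 62.7% in condensing spermatids. It supplied 41.3% in the WT spermatozoa and 15.3% in the KO library. *Vim* supplied 23.1% in pachytene spermatocytes, 20.4% in round spermatids and 9.77% in condensing spermatids, and 35.0% in WT spermatozoa and 65.5% in the KO library. *Trf* supplied 2.31% in condensing spermatids, 19.9% in WT spermatozoa and 18.7% in the KO library. *Cldn11* supplied 3.87% in pachytene spermatocytes and 7.14% in round spermatids. *Cldn11* and *Wt1*, at 9.82% and 6.63% of the reads in condensing spermatids, made up 1.93% and 0.444% in WT spermatozoa. Within condensing spermatids the share of *Clu* was 64.3, 65.7 and 68.0% in the WT libraries and 59.3, 58.7 and 58.2% in the KO libraries, and within pachytene spermatocytes 65.6, 59.9 and 63.2% in WT and 55.2, 50.8 and 41.3% in KO. The 2 genotypes did not overlap in either stage. In round spermatids they did, at 57.1, 57.8 and 55.2% in WT and 50.2, 52.9 and 55.4% in KO. The shares of a library add up to the whole, so a lower share of *Clu* raises those of other genes. The share of *Vim* was higher in each pachytene KO library, at 30.4, 27.5 and 41.3% against 15.2, 21.9 and 16.5%. It was also higher in condensing KO, at 11.2, 9.78 and 12.0% against 8.56, 9.01 and 8.76%, as were those of *Wt1*, *Gata4* and *Rhox5*. How often genes part in this way was not counted, and nothing is read from it.

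**Figure D3:**
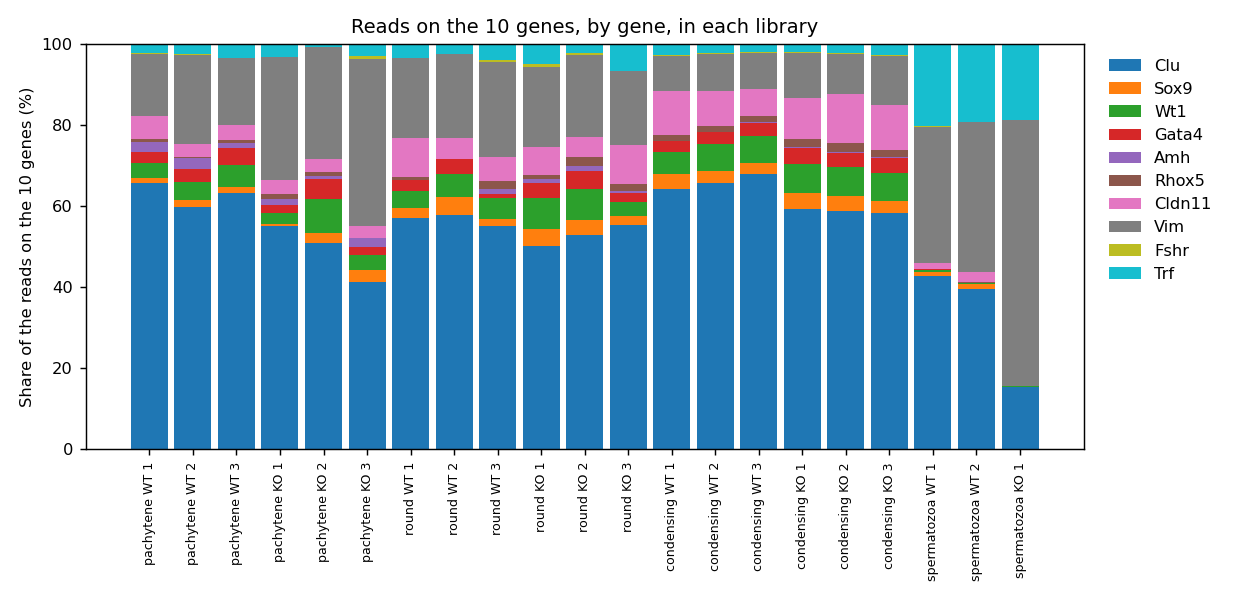
Share of each gene, in percent, among the reads on the 10 genes in each of 21 libraries; bars are stacked to 100%. *Clu* is the largest part in most libraries of the first 3 stages and *Vim* in the KO spermatozoa library, where it holds 65.5%.

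Against the condensing spermatids, 8 of the 10 members could be placed in spermatozoa as above, within or below. *Vim* was at 176 and 179 CPM in WT and 1164 CPM in KO, and *Trf* at 107 and 93.4 CPM in WT and 332 CPM in KO, all above every condensing library. *Clu*, at 223 and 192 CPM in WT and 272 CPM in KO, lay within the condensing range. *Wt1*, at 3.48 and 0.721 CPM in WT and 2.12 CPM in KO, *Gata4*, at 0.580 and 0.721 CPM in WT and 0.606 CPM in KO, *Rhox5*, at 0 to 2 counts, *Sox9*, at 5.51 and 6.13 CPM in WT and 1.82 CPM in KO, and *Cldn11*, at 7.53 and 12.6 CPM in WT and 1.82 CPM in KO, lay below every condensing library. The 2 scarce members were not placed: *Fshr* had 1 and 0 counts in WT and 3 in KO, 0.910 CPM and inside its condensing range, and *Amh* had 2, 0 and 1. Without *Clu*, *Vim* and *Trf*, the sum of the other 7 members was 17.97 and 20.6 CPM in WT spermatozoa and 8.19 CPM in KO, against 78.5 to 115 CPM in condensing spermatids. The spermatozoa thus held more of the 10 genes in sum and less of the transcription factors and the junction gene. The genotype was not tested in spermatozoa, which have 1 KO library. That library also had 57.7% of its reads in rows that name no gene, against 48.5% and 47.8% in WT, and 21.8% of its gene counts on mitochondrial genes and *Rn45s*, against 16.04% and 16.98%. The part of this in the values was not tested.

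Lists of other cells differed between the WT and KO libraries of spermatozoa, in both directions. The macrophage list was higher in the KO library, as the summed level was. The epididymal and elongating spermatid lists were lower there. The 8 macrophage genes summed to 795 and 780.4 CPM in WT and 3663 CPM in KO spermatozoa, against 38.1 to 67.3 CPM in condensing spermatids, and *Lyz2*, the lysozyme gene, led with 2361 CPM in the KO library. The 8 epididymal epithelium genes summed to 1797 and 1998 CPM in WT and 555 CPM in KO spermatozoa, against at most 6.45 CPM in the other 18 libraries, with *Crisp1* the highest of them; *Lcn5*, *Lcn8* and *Lcn9* were at 0 in every library. Spermatozoa carry the tissue label testis, and markers of the epididymis were thus present in them. The 8 elongating spermatid genes summed to 27013 and 25592 CPM in WT and 10136 CPM in KO. The part of these cells in the levels of *Clu*, *Vim* and *Trf* was not tested.

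Lists of other testis cells had ratios between stages near those of the 10 genes in some steps and far from them in others. The 8 Leydig cell genes, led by *Cyp17a1*, summed to 85.1 to 187 CPM in WT and 27.2 to 123 CPM in KO pachytene spermatocytes, to 6.36 to 14.6 CPM in round spermatids, and to 158 to 231 CPM in WT and 89.9 to 139 CPM in KO condensing spermatids. The condensing to round ratio of that list was 15.1 in WT and 13.3 in KO, where the 10 Sertoli genes had 10.6 and 11.2. Its condensing to pachytene ratio was 1.36 and 1.56, where theirs was 10.9 and 13.4. The 8 macrophage genes summed to 3.79 to 5.73 CPM in pachytene, 21.8 to 30.9 CPM in round and 38.1 to 67.3 CPM in condensing libraries. Their condensing to pachytene ratio was 11.2 in WT and 9.73 in KO, beside 10.9 and 13.4 for the Sertoli genes, and their condensing to round ratio was 2.05 and 1.71. The 7 peritubular myoid genes, led by *Actg2*, summed to 111 to 148 CPM in pachytene spermatocytes, 326 to 417 CPM in round spermatids and 350 to 450 CPM in condensing spermatids. Most of the round and condensing sums was *Actg2* alone, at 38.2 to 82.1 CPM in WT pachytene, 293 to 305 CPM in WT round and 276 to 340 CPM in WT condensing libraries. The 5 endothelial genes, led by *Vwf*, were 2.15 times as high in condensing as in round WT spermatids, and the 5 red blood cell genes, at 18.6 to 25.0 CPM in condensing spermatids and at most 1.82 CPM in pachytene and round libraries, consisted mostly of *Alas2*, with *Hba-a1* and *Hbb-bt* at 0 throughout. The red blood list stood 15.5 times as high in condensing as in round and 29.6 times as high as in pachytene WT cells. The germ cell lists had their own order. Spermatocyte genes, led by *Sycp1*, summed to 431 to 908 CPM in pachytene, 340 to 403 CPM in round and 393 to 530 CPM in condensing libraries, round spermatid genes, led by *Spert*, were highest in round spermatids at 1523 to 1700 CPM, elongating spermatid genes, led by *Prm2*, reached 34907 CPM in a condensing library, and spermatogonium genes, led by *Kit*, stayed at 24.2 to 69.4 CPM in all libraries. The part of these cells in the levels of the 10 genes was not tested.

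**Figure D4:**
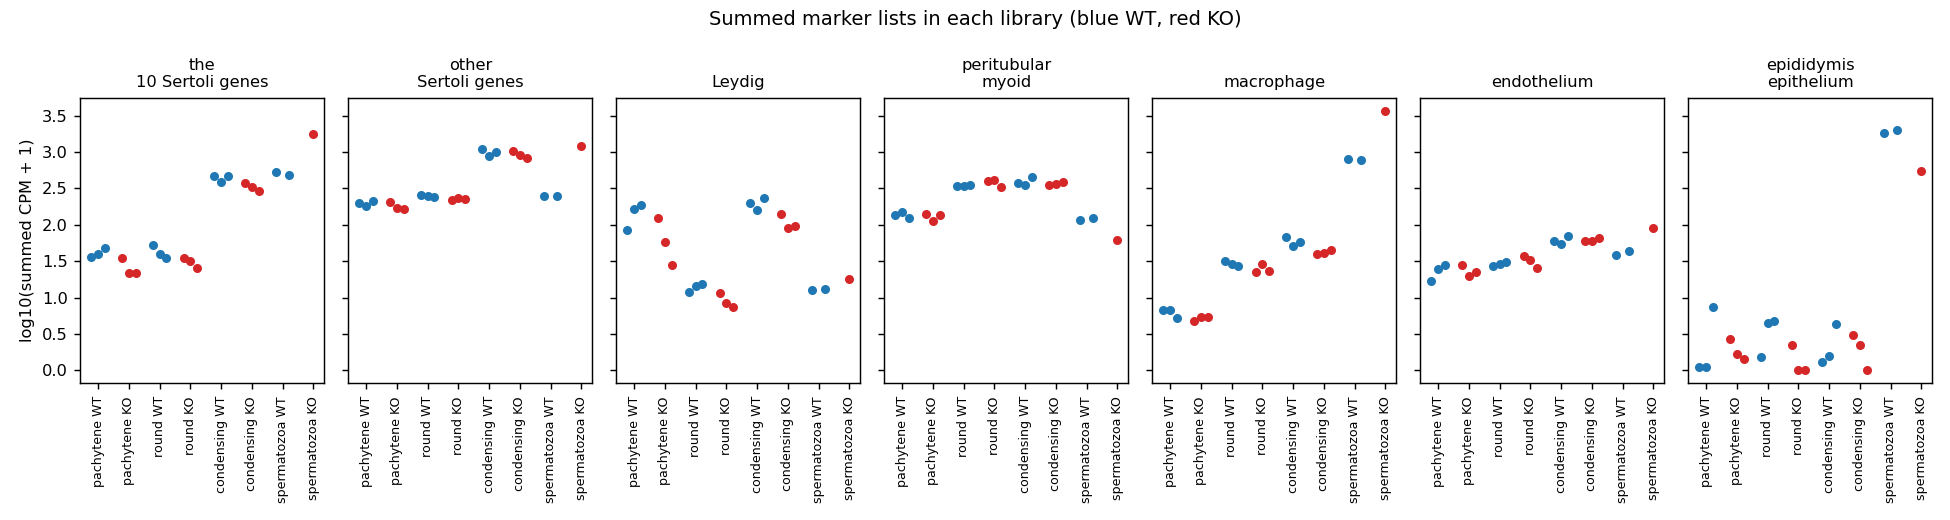
Summed level of each marker list, as log10(CPM + 1), in each library (blue WT, red KO). The 10 Sertoli genes and 28 other Sertoli genes are higher in the condensing libraries than in the pachytene and round ones, Leydig genes are low in round spermatids, and epididymal epithelium genes exceed 500 CPM in spermatozoa alone.

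A further 28 Sertoli cell genes that were not members were also highest in sum in condensing spermatids among the 3 stages. They summed to 162 to 213 CPM in pachytene spermatocytes, 220 to 257 CPM in round spermatids and 816 to 1087 CPM in condensing spermatids, and 26 of the 28 had every condensing library above every pachytene and round library, beside 10.6% of all genes with a mean of at least 1 CPM. The exceptions were *Tjp1*, the most abundant of them, at 100.5 to 143 CPM in pachytene, 129 to 151 CPM in round and 112 to 127 CPM in condensing libraries, and the scarce growth factor gene *Gdnf*, at no more than 1.36 CPM in these stages. Their median condensing to round ratio in WT was 10.6, beside 12.4 for the members. The 28 genes too were listed with earlier results of these libraries known, so nothing is read from these differences. By mean level over the 18 libraries of the 3 stages the highest were *Tjp1*, which encodes a scaffold of tight junctions, the protease gene *Ctsl*, *Aard*, the cystatin gene *Cst9*, the receptor gene of anti-Müllerian hormone *Amhr2* and the defensin gene *Defb19*. *Ctsl*, which macrophages also express, reached 1110 CPM in the KO spermatozoa library.

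Whether the loss of H2A.L.2 went with a different amount of this RNA was asked stage by stage. The quasi-likelihood test of edgeR was used, at a Benjamini-Hochberg adjusted p under 0.05 over all genes that passed its filter on low counts. No member passed the test in any of the 3 stages. In pachytene spermatocytes 3 members passed the filter, and 0 of all 12236 genes were called (0%), with 769 below an unadjusted p of 0.05 and 2 called by DESeq2. *H2afb1* itself was not called there in the main fit, at a log2 fold change of -2.75 (SE 0.39, edgeR adjusted p = 0.581). Its call depended on the fit, and it passed in 4 of 13 alternatives. Among these were DESeq2's Wald test (adjusted p = 6.79e-11) and the fit without pachytene WT replicate 3 (edgeR adjusted p = 6.67e-06). In round spermatids 5 members passed the filter, and 3 of 12804 genes were called (0.0234%). In condensing spermatids 8 members passed the filter and 1 of 13734 genes was called (0.00728%), *H2afb1* itself. *Amh* and *Fshr* passed the filter in none of them. With WT round replicates 2 and 3 summed, 0 members were called in round spermatids as well.

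The shift of *Clu* pointed the same way in the 3 stages without passing the test. Its log2 fold change, KO against WT, was -1.0 (SE 0.26, edgeR adjusted p = 0.672) in pachytene spermatocytes. It was -0.61 (SE 0.16, edgeR adjusted p = 0.568) in round spermatids and -0.55 (SE 0.13, edgeR adjusted p = 0.399) in condensing spermatids. All 9 KO libraries lay below the WT libraries of their stage. The difference between its KO effects in round and pachytene cells was 0.39 (SE 0.29, edgeR adjusted p = 0.751), and between condensing and round cells 0.06 (SE 0.26, edgeR adjusted p = 0.9998). With the replicate number as a block *Clu* passed in round spermatids (edgeR adjusted p = 0.0283), although the numbers were not taken to pair the libraries. The call in condensing spermatids depended on the fit: it passed by DESeq2's Wald test (adjusted p = 0.0422), where 13 genes were called, without condensing WT replicate 2 (edgeR adjusted p = 0.0487) and with that block (edgeR adjusted p = 0.00524), while the adjusted p over its 13 alternatives ran from 0.00524 to 0.9999 and the log2 fold change from -0.67 to -0.45.

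*Vim* did not keep 1 direction. It had a log2 fold change of 0.21 (SE 0.26, edgeR adjusted p = 0.782) in pachytene, -0.61 (SE 0.20, edgeR adjusted p = 0.706) in round and -0.05 (SE 0.13, edgeR adjusted p = 0.985) in condensing cells. The KO effect differed by -0.82 (SE 0.30, edgeR adjusted p = 0.710) between round and pachytene cells, and by 0.56 (SE 0.26, edgeR adjusted p = 0.9998) between condensing and round cells. Neither difference passed the test. In each of these 2 tests of differences 8 members and 14479 genes were tested, and 0 genes were called (0% in both, edgeR), while an unadjusted p below 0.05 was reached by 1003 and 402, and DESeq2 called 1 and 0.

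For the transcription factors and *Cldn11* the genotypes overlapped in condensing spermatids. The log2 fold change there was -0.14 (SE 0.19) for *Sox9*, -0.19 (SE 0.14) for *Wt1*, -0.01 (SE 0.17) for *Gata4*, 0.14 (SE 0.21) for *Rhox5* and -0.04 (SE 0.16) for *Cldn11*, and the edgeR adjusted p ran from 0.897 to 0.999. *Trf* was at -0.39 (SE 0.19, edgeR adjusted p = 0.783). The mean summed level of the members in KO was 0.618 times that in WT pachytene spermatocytes, and 0.829 times without *Clu*. In round spermatids it was 0.715 times that in WT, and 0.785 times without *Clu*. In condensing spermatids it was 0.755 times that in WT, and 0.916 times without *Clu*. The sum of the 8 Leydig genes was 0.550 times as high in KO in that stage, 0.479 times in pachytene and 0.627 times in round cells, and the macrophage list 0.701 times in condensing cells. Other lists differed less in condensing cells. The other Sertoli genes stood at 0.926 times, peritubular myoid genes at 0.929, red blood genes at 0.932 and endothelial genes at 1.02 times. The part of these cells in the values of *Clu* was not tested.

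**Figure D5:**
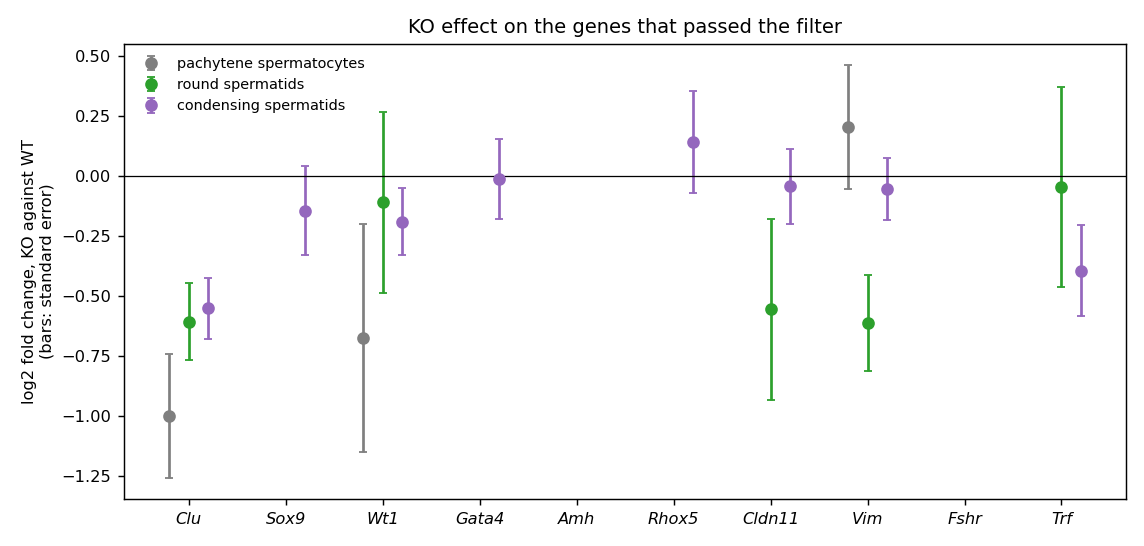
Log2 fold change between *H2al2* KO and WT for each member that passed the filter on low counts, in pachytene spermatocytes (grey), round spermatids (green) and condensing spermatids (purple), with standard errors. *Clu* lies below 0 in all 3 stages, from -1.0 to -0.55, no member passed the test, and *Amh* and *Fshr* have no point.

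The libraries of the 2 genotypes were also compared by overlap. Among genes with a mean of at least 1 CPM in the stage, every KO library was lower than every WT library for 2 of 5 members in pachytene spermatocytes (*Clu* and *Cldn11*), beside 6.77% of all such genes, for 2 of 7 in round spermatids (*Clu* and *Vim*), beside 4.9%, and for 2 of 9 in condensing spermatids (*Clu* and *Trf*), beside 7.18%. Every KO library was higher for 0 members in each stage, beside 5%, 4.81% and 3.95% of genes. *Amh*, under 1 CPM, was also lower in each pachytene KO library, with 1 to 3 counts against 4 to 8. Of the other Sertoli genes, 7 of 18, 6 of 22 and 4 of 27 were lower without overlap in these stages, and 1, *Mro*, was higher in condensing spermatids. In pachytene KO spermatocytes *Cst9* had a log2 fold change of -2.30 (SE 0.39, edgeR adjusted p = 0.581) and *Defb19* of -2.31 (SE 0.37, edgeR adjusted p = 0.581), and neither was called. Over 12 alternatives each passed in 2, all 18 libraries in 1 fit and the fit without pachytene WT replicate 3, and their adjusted p ran from 0.0259 and 0.00377 up to 0.988.

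Round spermatids and pachytene spermatocytes, which the choice of the genes did not compare, differed little in the summed level, with a ratio of 1.03 in WT and 1.19 in KO. The test used the 9 libraries of a genotype, and its filter on low counts was passed by 8 members, some of them only through the condensing libraries on which they were chosen. With filter and fit held to the 6 pachytene and round libraries, an alternative added after the data were seen, 6 members passed in WT and 4 in KO. *Sox9*, *Rhox5*, *Amh* and *Fshr* passed in neither genotype and *Trf* and *Gata4* not in KO, so no result is drawn for them there. Most genes differed between these cells, 70.2% of 14011 in WT and 74.9% of 13877 in KO in the fit of 9 libraries.

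*Cldn11* was higher in round spermatids of both genotypes, by a log2 fold change of 1.04 (SE 0.43, edgeR adjusted p = 0.0466) in WT and 1.46 (SE 0.38, edgeR adjusted p = 0.00121) in KO. It was called in both with the 6 libraries alone (edgeR adjusted p = 0.0441 and 0.00427). In WT *Cldn11* was called in 9 of 15 alternatives. Without round WT replicate 1 its log2 fold change was 0.47 (edgeR adjusted p = 0.332). *Vim* was higher in WT, by 0.47 (SE 0.20, edgeR adjusted p = 0.0459, and 0.0352 with the 6 libraries alone). *Clu* was called higher in KO, by 0.49 (SE 0.20, edgeR adjusted p = 0.0393), and was not called with the 6 libraries alone (edgeR adjusted p = 0.0545). With *Sox9* in both genotypes and *Trf* in KO, which needed the condensing libraries to pass the filter, the fit of 9 libraries called 3 members in WT and 4 in KO. With totals alone as the scale, the median of all genes shifted by -0.20 in WT and -0.15 in KO, and 0 members in WT and 1 in KO, *Cldn11*, were called. With WT round replicates 2 and 3 summed, *Vim* was no longer called (edgeR adjusted p = 0.0576, range over 15 alternatives 0.0146 to 0.225). With each replicate left out in turn, 0 to 2 members were called in WT, none without pachytene replicate 1 or 3 or without round replicate 1, and 1 to 4 in KO, with *Cldn11* called in each of the 6 KO fits.

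The other Sertoli genes also passed the filter in part through the condensing libraries. With the 6 pachytene and round libraries alone, 19 of the 28 were tested in WT and 10 called, each of them higher in round spermatids, beside 72.3% of 13100 genes. In KO 15 were tested and 10 called, each of them higher, beside 76.8% of 12828 genes. Among those called in both genotypes were *Aard*, *Amhr2*, *Cst9*, *Cst12*, *Defb19*, *Espn*, *Inha* and *Tjp1*, and *Etv5* was called in WT and *Ctsl* in KO. Their log2 fold changes ran from 0.51 for *Tjp1* to 1.72 for *Aard* in WT, and from 0.27 for *Tjp1* to 2.97 for *Cst9* in KO. In the fit of 9 libraries *Aard* had a log2 fold change of 1.62 in WT (SE 0.22, edgeR adjusted p = 1.36e-05) and 1.70 in KO (SE 0.24, edgeR adjusted p = 6.41e-07), and *Amhr2* of 1.32 (SE 0.27, edgeR adjusted p = 0.000601) and 1.30 (SE 0.23, edgeR adjusted p = 2.31e-05). Both genes were called with the 6 libraries alone as well. The calls of *Tjp1* and *Ctsl* depended on the fit. With totals alone as the scale *Tjp1* was called in neither genotype (edgeR adjusted p = 0.117 in WT and 0.402 in KO). *Ctsl* was then not called in KO (edgeR adjusted p = 0.103). In KO *Tjp1* was called in 9 and *Ctsl* in 10 of 14 alternatives. Over the same step the Leydig list was at 0.0901 times its pachytene mean in WT and 0.118 times in KO, beside 1.03 and 1.19 times for the 10 Sertoli genes.

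The summed level of the 10 genes was followed most closely over the 21 libraries by *Sdc4*, *Cited2*, *Arhgap31*, *Lasp1*, *Cpt1a*, *Arhgap18*, *Fuca2* and *Ndrg1*. Their Pearson correlations of log2(CPM + 1) were 0.981 to 0.994 among 11068 genes ranked. None of them is in a marker list, and the points share the 4 stages. The sum rests mainly on *Clu*, and in spermatozoa on *Clu*, *Vim* and *Trf*. The transcription factor genes and *Cldn11* lay lower in spermatozoa than in condensing spermatids. *Sdc4*, which encodes the cell surface proteoglycan syndecan-4, ran from 2.09 to 4.76 CPM in pachytene, 2.62 to 7.13 CPM in round and 27.6 to 39.2 CPM in condensing libraries, and from 44.3 to 128 CPM in spermatozoa. After the mean of each group was taken off, over 18 libraries and 10184 genes, the closest were *Oxsr1*, *Fam63a*, *Nedd4*, *Adgrl1*, *Inha*, *Sgpl1*, *Ldhb* and *Adora1*, at 0.874 to 0.908. *Inha*, the alpha subunit of inhibin, which Sertoli cells secrete, was the only one of these 8 in the list of other Sertoli genes, at 17.9 to 26.7 CPM in condensing libraries and 0.896 to 7.26 CPM in pachytene and round ones. The correlations are descriptions, and libraries of 1 group share stage and preparation.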

How the data were processed

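Total RNA of fractionated spermatogenic cells was sequenced as stranded, paired-end 75 base libraries after ribosomal RNA depletion. Per the labels and the submitters' processing notes, the authors aligned reads to mm10 with STAR 2.7.11b and counted them per gene with HTSeq with the reverse strand setting. They deposited raw read counts per gene, one table per library, without normalization or pooling; DESeq2 1.22.2 is also named. The 5 rows that name no gene, with 34.6% to 57.7% of reads, were left out. CPM was taken over gene counts, so intervals and floors (3 counts) cover counting error only, and the precision follows the 2772995 to 8201682 counts per library.

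Groups came from sample titles. Tests used edgeR 4.0.16 in R 4.3.3 (TMM, filterByExpr, quasi-likelihood, robust), with SE = |log2 fold change| / √F, within each stage, between round and pachytene cells per genotype, and as an interaction over the 18 libraries of the 3 stages. DESeq2 1.42.0, other scaling, filters, a replicate block, 1 fit of the 18 libraries and each replicate left out were alternatives. Summing WT round replicates 2 and 3, and fits of the pachytene and round libraries only, were added after seeing the data. On simulated counts, changes were given only to genes with a mean of at least 20 counts. Of the 2-fold changes, 78% were recovered in pachytene (12236 genes simulated), 80% in round (12804) and 88% in condensing cells (13734). In the tests of differences of the KO effect 59% (round minus pachytene) and 61% (condensing minus round) were recovered. Of the simulated calls, 13 of 188 in pachytene, 15 of 195 in round and 20 of 208 in condensing cells fell on unchanged genes. Most members had fewer counts in pachytene and round cells, and *H2afb1* itself was not called in the main fit of the real pachytene libraries. The recovered shares thus do not give the power of the tests for the members. Genes are named by rule: the 10 members, other Sertoli genes called or among the 6 highest, the 8 closest by correlation (mean of at least 5 CPM), and the top gene of each marker list; *Mro*, *Gdnf*, the 3 *Lcn* genes at 0 and genes at 0 of the red blood list were named after their values were seen. One called gene of the other Sertoli list is counted but not reported here. Members and lists were chosen with earlier results of these data known. Gene positions come from GENCODE M21 (GRCm38).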

Additional observations from a re-analysis of the deposited data

Results flagged for a closer look

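The 1 KO library of spermatozoa lies outside every test above, though it is among the 21 libraries of the correlations. It held the highest summed level of these genes, 1776 CPM, and the highest levels of *Vim*, 1164 CPM, and *Trf*, 332 CPM. These lay above the 2 WT spermatozoa libraries. *Clu*, at 272 CPM, lay within its condensing range. The other 7 members were lower in sum, at 8.19 CPM against 17.97 and 20.6 CPM in WT spermatozoa. With 1 library in the group these differences were not tested. In the same library the macrophage list stood at 3663 CPM, the elongating spermatid list at 10136 CPM, and 57.7% of its reads lay in rows that name no gene, 45.9% in the no-feature row (WT spermatozoa 48.5% and 47.8%, and 32.7% and 32.1%). Mitochondrial genes and *Rn45s* took 21.8% of its gene counts (WT 16.04% and 16.98%). The part of these in the values was not tested.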

How the results depend on the processing

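Of 502 values of single members under the alternatives, 432 kept direction and side of the threshold, 37 lost a call, 12 gained one and 21 changed sign. The values below are log2 fold changes, counts of genes or ratios, and unless an alternative's own construction shows it the cause was not tested. Same-numbered KO and WT libraries correlated from -0.214 to 0.273 in their deviations, not above 0.1 in every pair, so the numbers were not taken as pairs; with the replicate block *Clu* was called in round (-0.60, edgeR adjusted p = 0.0283) and condensing cells (-0.54, edgeR adjusted p = 0.00524), as 1 member in each.

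All genes called in pachytene KO numbered 0, and 2 by DESeq2, 1 with the replicate block, 3 with all 18 libraries and 0 to 113 with each replicate left out, 113 without pachytene WT replicate 3. In round KO they numbered 3, and 6 by DESeq2, 26 without filter, 47 with the block, 1 with 18 libraries, 1 with WT replicates 2 and 3 summed and 1 to 293 with each replicate left out, 293 without round WT replicate 1. In condensing KO they numbered 1, and 6 by library size, 13 by DESeq2, 14 without filter, 3 with at least 10 counts, 41 with the block and 1 to 23 with each replicate left out, 23 without condensing WT replicate 2. The round minus pachytene difference gave 0, and 1 by DESeq2, 1 without filter and 0 to 6 with each replicate left out, 6 without pachytene WT replicate 3.

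Members called in condensing KO numbered 0, 1 by DESeq2 and 0 to 1 with each replicate left out. Between round and pachytene cells they numbered 3 in WT, 0 by library size and 0 to 2 with each replicate left out. In KO they numbered 4, 1 by library size, 1 with at least 10 counts and 1 to 4 with each replicate left out. *Sox9* in both genotypes and *Trf* in KO were among them only through the condensing libraries. Of all genes, 70.2% in WT and 74.9% in KO were called. With the pachytene and round libraries only, 2 of 6 members were called in WT and 1 of 4 in KO, beside 72.3% and 76.8% of genes.

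The condensing to round ratio was 8.36 in WT without *Clu*, 12.3 without *Vim*, 12.4 as the median over members and 9.81 to 12.1 with each replicate left out, and 9.76 in KO without *Clu*. The condensing to pachytene ratio was 12.1 in WT without *Vim* and 13.2 as the median, and in KO 11.03 without *Clu*, 17.6 without *Vim*, 16.5 as the median and 12.3 to 16.1 with each replicate left out.

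With each replicate left out, values near 0 changed sign. KO against WT in round cells ran from -0.36 to 0.25 for *Wt1*, -0.78 to 0.025 for *Cldn11* and -0.25 to 0.25 for *Trf*. In condensing cells it ran from -0.29 to 0.018 for *Sox9*, -0.11 to 0.14 for *Gata4*, -0.0021 to 0.28 for *Rhox5*, -0.17 to 0.21 for *Cldn11* and -0.15 to 0.028 for *Vim*. Round against pachytene in WT ran from -0.092 to 0.22 for *Clu* (-0.10 by library size), -0.51 to 0.15 for *Gata4* and -0.022 to 1.35 for *Rhox5*. The condensing minus round difference ran from -0.11 to 0.21 for *Clu*. Depth limits *Amh* and *Fshr*, at 12 counts or fewer in every library.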
